A study of Mus musculus with 34 samples.

Results

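Oxt, Avp, Otp, Sim1, Trh, Oxtr and Avpr1a are the genes of oxytocin and vasopressin, of neurons that make them in the hypothalamus, and of their receptors in the brain. They were taken by gene symbol from a table of 18548 genes, and all 7 were listed in it. The levels of these genes by brain region, and the agreement among them over the striatum libraries, were part of how they were chosen, so both are given here as a description with no test: the members were chosen by their normalized counts in each region and library. The table came from RNA sequencing of male C57BL/6J mice at postnatal day 56, which were heterozygous for a Myt1l mutation or wild type and received no treatment. There were 11 libraries of prefrontal cortex (PFC) and 11 of hippocampus, in each case 5 from heterozygotes and 6 from wild types, and 12 of striatum, 6 of each genotype. Which Myt1l allele was used, and whether each library is a separate animal, is not said in the labels, so a p-value here measures the spread between libraries, which may be technical.

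Oxytocin and vasopressin are short peptides cut from precursors that also hold a neurophysin, the carrier protein packed with the hormone. Both are made mainly by large neurons of the paraventricular and supraoptic nuclei of the hypothalamus, which send axons to the posterior pituitary and to many forebrain regions. The transcription factors Otp and Sim1 are needed for these neurons to form, and Trh encodes thyrotropin-releasing hormone, a peptide of other paraventricular neurons. Oxtr and Avpr1a encode receptors that couple to Gq proteins and are found on neurons in many brain regions.

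The normalized counts of a library, which are the authors' scaled values, summed to 25786041 to 29798959. Myt1l, the mutated gene, was not lower in the heterozygote libraries of any region. Its normalized count was 6388 to 7525 in heterozygote and 5578 to 7992 in wild-type PFC, 6645 to 7550 and 5552 to 7186 in hippocampus, and 7064 to 9505 and 6923 to 8275 in striatum. The code 31-67M stands in the column names of 1 wild-type PFC library (replicate 6) and of 2 heterozygote libraries (replicate 1 of hippocampus and of striatum), and the sample labels were followed. Of 8 striatum markers, 8 were higher in every striatum library than in every other library. Of 8 cortex markers, 6 were highest in every PFC library, and of 7 hippocampus markers, 6 were highest in every hippocampus library. Over all 18548 genes the same held for 1042 (5.62%) in striatum, 1249 in PFC and 729 in hippocampus.

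Oxt and Avp lie tail to tail on chromosome 2 (GRCm38, GENCODE M21). Oxt spans chr2:130576173-130577054 on the plus strand, Avp spans chr2:130580620-130582554 on the minus strand, and 3565 bases lie between them. The codons of the mature hormones are shown because they hold the difference between the peptides. They lie in exon 1 of each gene, at chr2:130576267-130576293 for Oxt and at chr2:130582446-130582472 for Avp, and capitals mark the bases that differ.
Oxt: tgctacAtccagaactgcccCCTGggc
Avp: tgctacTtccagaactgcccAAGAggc
Of the 27 bases, 5 differed, in 3 of 9 codons, and 2 of the 9 residues they encode were different. Over the whole coding sequences, hormone included, 325 of 378 aligned coding bases were identical (86.0%). Bases that faced a gap in the alignment were left out of this share, and the Avp coding sequence is the longer. The longest identical run is 127 bases and crosses from exon 1 to exon 2 in both genes. It is shown because reads that fall inside it cannot be assigned to 1 gene by their sequence. No base in it is capitalised.
Oxt and Avp: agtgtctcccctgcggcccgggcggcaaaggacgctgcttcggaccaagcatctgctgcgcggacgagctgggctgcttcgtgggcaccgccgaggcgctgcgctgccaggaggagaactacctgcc
Of the 31-base words in the coding sequences, 97 were shared, out of 348 in Oxt and 477 in Avp. A share of the reads of either gene could therefore have been counted to the other. The ratio between them, and their agreement over libraries, carry that uncertainty.

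Oxt was high in every striatum library and near 0 elsewhere. Its normalized count in striatum was 766 ± 353 (SD, n = 12), with 227.4, 487.1, 625.4, 824.6, 1052 and 1063 in the heterozygote libraries. The wild-type libraries held 189, 650.1, 735, 918, 1061 and 1358. The genotypes overlapped over nearly their whole range, and the lowest library of all, wild-type replicate 5, still held 29.4 times the highest value outside the striatum. In hippocampus Oxt was 1.68 ± 1.98 (SD, n = 11), with a highest value of 6.43 and 4 libraries listed at 0. In PFC it was 1.08 ± 1.53 (SD, n = 11), with a highest value of 4.18 and 6 libraries listed at 0. In tissue RNA of this kind, fewer cells of a type and less RNA per cell cannot be told apart.

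Avp, the precursor of vasopressin, followed the same order of regions with a wider spread. Its normalized count in striatum was 259 ± 155 (SD, n = 12), from 31.8 to 438 in the heterozygote libraries (median 274) and from 10.8 to 471 in the wild-type libraries (median 273). The lowest and the highest library were both wild type, replicates 5 and 6. Avp was 3.72 ± 6.04 in hippocampus and 2.33 ± 2.70 in PFC (SD, n = 11 each). The striatum range overlapped that of hippocampus, because heterozygote hippocampus replicate 2 held 21.2 and wild-type striatum replicate 5 held 10.8, and it lay above that of PFC, whose highest library held 8.60. The ratio of Oxt to Avp in striatum was 2.14 to 17.5, with a median of 2.95. The 3 highest ratios, 17.5, 7.15 and 6.07, were those of wild-type replicate 5, heterozygote replicate 6 and wild-type replicate 2, and the first pair of these held the lowest values of both peptides.

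Otp and Sim1, the transcription factors of the lineage, were low in level and showed the same order of regions. Otp in striatum was 146 ± 61.6 (SD, n = 12), from 67.2 to 245 in the heterozygote and from 33.9 to 221 in the wild-type libraries. Sim1 was 92.5 ± 41.5 (SD, n = 12), from 43.2 to 151 in the heterozygote and from 17.9 to 139.5 in the wild-type libraries. In each case wild-type replicate 5 was the lowest library and heterozygote replicate 4 the highest. In PFC, Sim1 was listed at 0 in 10 of 11 libraries, and Otp did not exceed 4.03. Otp lies at chr13:94875602-94885130 on the plus strand and Sim1 at chr10:50894754-50989152 on the plus strand.

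Trh, the precursor of thyrotropin-releasing hormone, at chr6:92242061-92244650 on the minus strand, was 623 ± 208 in striatum (SD, n = 12). It ran from 428 to 988 in the heterozygote and from 254 to 920.2 in the wild-type libraries. Trh differed from the other 4 genes in having a steady level in PFC, 18.2 ± 5.84 (SD, n = 11), where no library was at 0. In hippocampus it was 56.2 ± 66.0 (SD, n = 11) and ran from 4.27 to 181. Only 1.41 times separated the lowest striatum library from the highest hippocampus library.

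**Figure D1:**
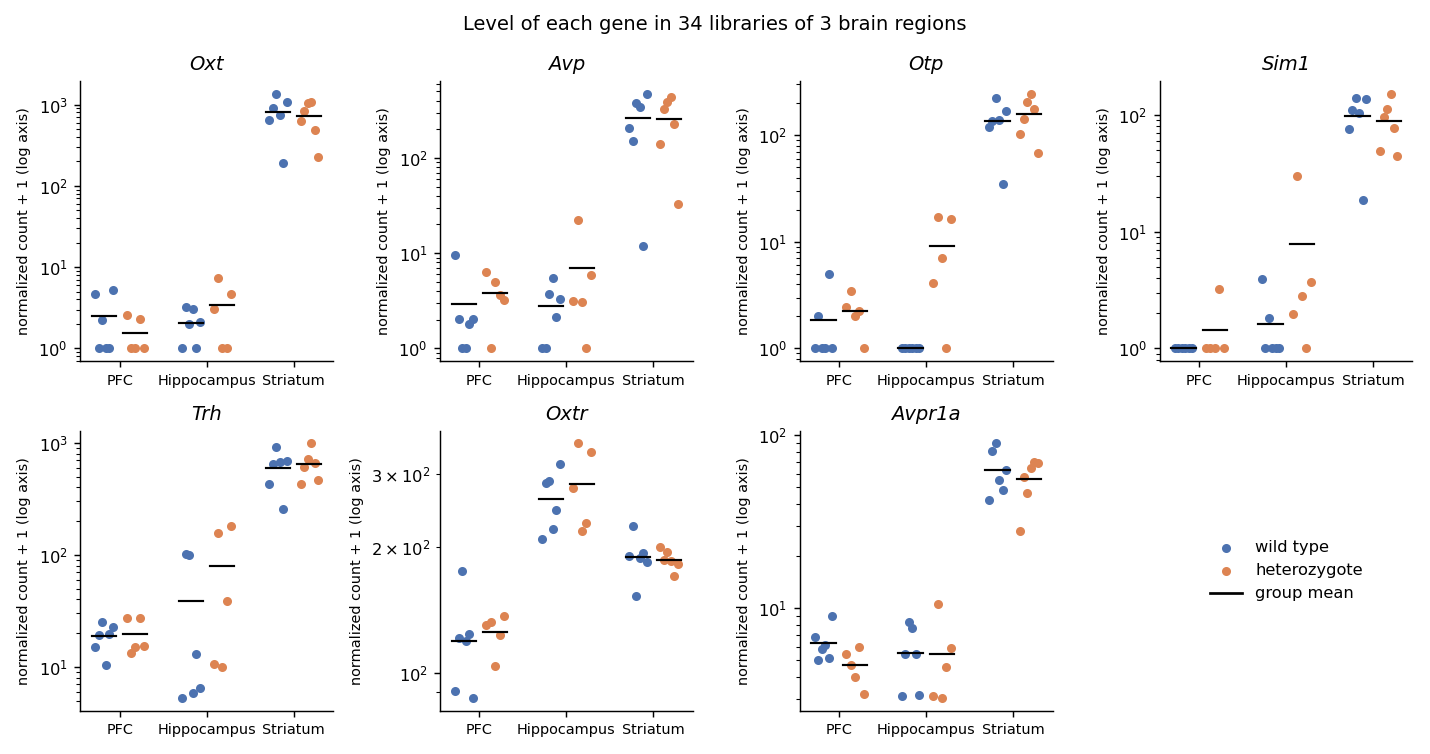
Normalized counts plus 1 (log axis) of the 7 genes in PFC, hippocampus and striatum; each point is 1 library, coloured by genotype, and the horizontal lines are group means. Oxt in striatum sits between 189 and 1358 and at or below 6.43 elsewhere, and Oxtr is the gene whose regions lie closest together.

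Every striatum library lay above every PFC and hippocampus library for 4 of the 7 genes, Oxt, Otp, Trh and Avpr1a. The same held for 5.62% of all 18548 genes. The levels by region chose the members, so nothing is read from that count. Per kilobase of merged exons, the order of the means in striatum was Oxt (1426 ± 657), Trh (450.0 ± 150.1), Avp (448 ± 268), Otp (50.7 ± 21.4), Oxtr (39.0 ± 3.55), Avpr1a (21.9 ± 6.43) and Sim1 (10.7 ± 4.82) normalized counts per kilobase (SD, n = 12). The means of the neighbours Trh and Avp, and of Otp and Oxtr, lay within 1 SD of each other, so their order is not fixed by these libraries.

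Within the striatum the 5 genes of hypothalamic neurons went up and down together from library to library. Over the 10 pairs among Oxt, Avp, Otp, Sim1 and Trh, Pearson r of log2(normalized count + 1) was 0.82 to 0.95 and Spearman rho 0.81 to 0.97 (n = 12 libraries, no test, since this agreement chose the genes). With Oxt, r was 0.93 for Avp (rho 0.85) and 0.92 for Sim1 (rho 0.97). Wild-type replicate 5 was the lowest library for all 5 genes, and heterozygote replicate 6 was the second lowest for Oxt, Avp, Otp and Sim1. For Trh, heterozygote replicate 6 held 464, rank 9 of 12 counted from the highest. Heterozygote replicate 4 was the highest or second highest for all 5. For the receptors, r with Oxt was -0.10 for Oxtr and 0.20 for Avpr1a over the 12 libraries.

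Without the 2 libraries farthest from the Oxt median, wild-type replicate 5 and heterozygote replicate 6, r with Oxt was 0.62 for Avp, 0.62 for Otp and 0.82 for Sim1. The relation to Avp and Otp therefore rests in part on those libraries. Within the heterozygote libraries alone r with Oxt was 0.95 for Avp, 0.84 for Otp, 0.84 for Sim1 and 0.66 for Trh, and within the wild-type libraries it was 0.94, 0.99, 0.99 and 0.96 (n = 6 each). The receptors gave no common sign: Avpr1a had r = -0.28 within heterozygotes and 0.67 within wild types (rho 0.89), and Oxtr 0.41 and -0.31. Over the 8 libraries with a code that begins with 35, r with Oxt was 0.90 for Avp, 0.90 for Otp, 0.97 for Sim1 and 0.92 for Trh. Otp and Sim1 also kept a narrow ratio to each other, 1.23 to 2.31, while Oxt over Trh ran from 0.49 to 1.54.

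**Figure D2:**
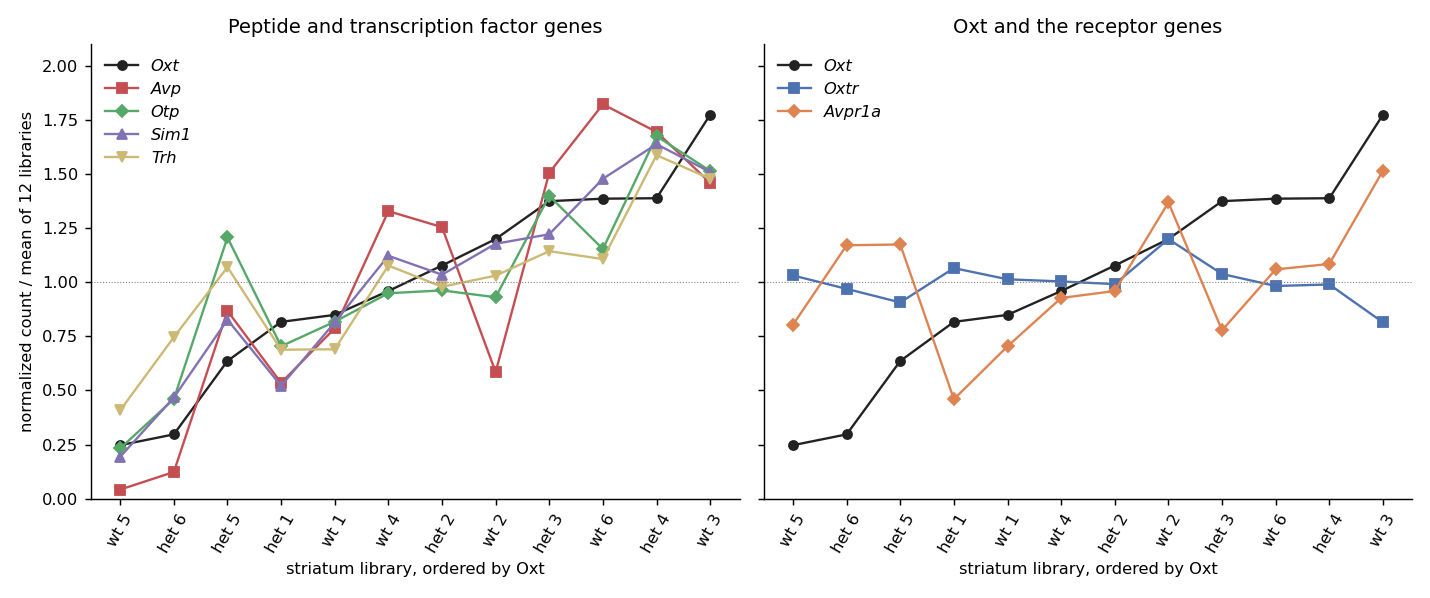
The 12 striatum libraries in order of their Oxt count; each line is a gene, divided by its mean over the libraries. Oxt rises to the right because the libraries are ordered by it. The lines of Avp, Otp, Sim1 and Trh tend to rise with it from wild-type replicate 5, but not at every step. All of them fall from heterozygote replicate 5 to heterozygote replicate 1, where Avp goes from 224 to 138. The line of Oxtr stays near its mean, and that of Avpr1a varies, from 26.9 to 88.7 normalized counts, in another order.

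The mRNAs of Oxt and Avp varied together (r = 0.93), less so without the 2 libraries farthest from the Oxt median. These genes lie on opposite strands of chromosome 2. Oxt also varied with Otp (0.90), Sim1 (0.92) and Trh (0.82), which lie on other chromosomes. The part of gene position in these values was not tested. Reads of the coding sequence that Oxt and Avp share could raise their r. The promoters of Oxt and Avp are shown as a description, and their part in this agreement was not tested. They are the 250 bases before the RefSeq start (GRCm38.p6). In Oxt, capitals mark TGACC on either strand, the core of the site bound by nuclear receptors, at chr2:130575919-130576168 on the plus strand. In Avp, capitals mark ACGTG on either strand, part of the E-box, at chr2:130582589-130582838 on the minus strand.
Oxt: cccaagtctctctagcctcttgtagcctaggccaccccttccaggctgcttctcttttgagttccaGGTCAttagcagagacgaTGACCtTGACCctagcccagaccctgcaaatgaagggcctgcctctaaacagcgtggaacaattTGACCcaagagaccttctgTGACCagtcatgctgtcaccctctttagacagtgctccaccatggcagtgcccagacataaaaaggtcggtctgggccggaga
Avp: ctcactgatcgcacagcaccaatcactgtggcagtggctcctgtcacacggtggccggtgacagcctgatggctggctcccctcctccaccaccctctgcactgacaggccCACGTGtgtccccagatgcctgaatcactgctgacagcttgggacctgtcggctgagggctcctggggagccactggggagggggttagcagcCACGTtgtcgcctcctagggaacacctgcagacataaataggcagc
Both strands of all 7 promoters were searched for these words. The core of homeodomain sites, TAATTA, and the cyclic AMP response element, TGACGTCA, were searched as well, and no word of the 4 contains another. TGACC stood 5 times in the Oxt promoter, at -184, -166, -160, -102 and -83 from the start, and 1 time each in those of Trh (-57) and Oxtr (-97). It was absent from those of Avp, Otp, Sim1 and Avpr1a, and 35.2% of 32851 RefSeq promoters of this length held it. ACGTG stood 3 times in the Avp promoter (-139, -138 and -46), of which the first pair are the 2 strands of CACGTG, and 2 times in that of Oxtr (-43 and -42), with 16.6% of promoters holding it. TAATTA and TGACGTCA were in none of the 7 promoters, and 4.84% and 1.55% of promoters held them. A match is a description and not a site, and a missing word says only that these letters are not in the window.

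Markers of neighbouring tissue were followed in the same 12 striatum libraries. The summed count of 8 thalamus markers ran from 8312 to 15334, with its lowest values in wild-type replicate 5 (8312) and heterozygote replicate 6 (8490), the libraries lowest in Oxt. Over the 12 libraries its r with Oxt was 0.81 (rho 0.71), and all 8 genes had r above 0, with a median of 0.72. Over all 17053 genes with a striatum mean of at least 10, 8363 had r above 0 and the median was -0.01. The thalamus list is led by Slc17a6, a vesicular glutamate transporter that hypothalamic neurons also use, with a mean of 2734, and Calb2, at 2444. Gbx2 and Calb2 were highest in wild-type replicate 3, as Oxt was. All 8 had a mean of at least 10 in striatum and 7 of 8 in PFC and in hippocampus, a level that most genes reached. Of the 8, 4 were higher in every striatum library than in every other library, as were 5.62% of all genes. Rora and Lef1 were at like levels in PFC (2353 and 160) and striatum (2287 and 192), so the list is not particular to thalamus. The source of these markers was not tested. Without the 2 libraries farthest from the Oxt median, r of the sum was 0.59.

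The other lists moved with Oxt less, or the other way. The summed count of 8 striatum markers, led by Pde10a and Ppp1r1b, was highest in heterozygote replicate 6 (79377), and its r with Oxt was -0.52, with none of the 8 genes above 0. Without the 2 farthest libraries, that r was -0.14. The sum of 8 cortex markers fell into separate groups of libraries, 7 at 3853 to 5154 and 5 at 10474 to 14842, so no r is given for it. Wild-type replicate 5, lowest in Oxt, held the highest cortex sum, and heterozygote replicate 6 held 5154. Choroid plexus markers, led by Ttr, ran from 1376 to 89861 with r = 0.10. All 8 of them also had r above 0, as the thalamus markers did, but with a median of 0.10. Pallidum and septum markers had r = 0.61, which was -0.15 without the 2 farthest libraries. The sum of amygdala markers, in which Meis2 weighs most (mean 6598), had r = -0.55, which was -0.07 without them. Gene by gene, 4 of 7 amygdala markers had r above 0, with a median of 0.02, against 8363 of all 17053 genes. Amygdala markers Cyp19a1, Esr1, Lhx5 and Zic2 and the septal marker Trpc4 were also highest in wild-type replicate 3. Hippocampus markers had r = -0.38, which was 0.19 without the 2 farthest libraries, with 2 of 6 genes above 0. The 3 markers of midbrain dopamine neurons had r = 0.28, which was 0.41 without those libraries, and all 3 were above 0. What the markers of any list contributed to the peptide levels was not tested.

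**Figure D3:**
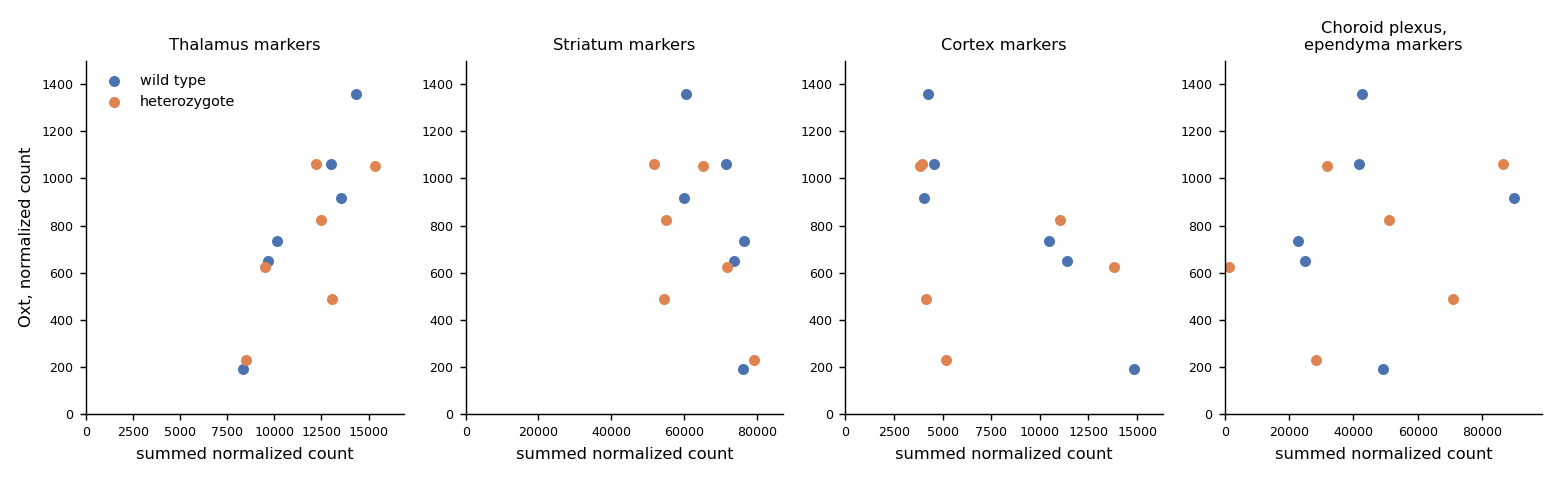
Oxt (vertical axis, normalized counts) against the summed normalized counts of thalamus, striatum, cortex and choroid plexus markers in the 12 striatum libraries, coloured by genotype. Wild-type replicate 5 and heterozygote replicate 6 are the lowest both in Oxt and in the thalamus sum, at 8312 and 8490.

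The genes most like the mean of Oxt and Avp over the striatum libraries were taken from 17052 genes with a mean of at least 10, as the 15 with the highest r over n = 12 libraries. Sim1 (r = 0.95) and Otp (0.94) came first, followed by Adcy8 (0.93), Rims3 (0.91), Galnt17 (0.91), St8sia1 (0.90), Rab11fip5 (0.90), Akap12, Cbln1 and Sema4g (0.89 each), and Lrrc8a, Sash1, Usp37, Phyh and Ucn3 (0.88 each). Ucn3, a peptide of the corticotropin-releasing hormone family, had means of 0.14 in PFC, 2.83 in hippocampus and 40.9 in striatum, where it ran from 12.2 to 69.1. Tcf7l2, a thalamus marker, was the 16th (r = 0.88), Slc17a6 the 29th (0.86) and Trh the 36th (0.85), and 99 genes had r over 0.8. C1ql2, a hippocampus marker, was the 30th (0.86) and Fezf1, a factor of hypothalamic neurons, the 75th (0.81); both were chosen for mention after their values were seen, as was Tcf7l2. These values describe 12 libraries that share depth scaling and tissue, and no p is given.

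Hippocampus held these genes in some libraries. The libraries with the most Trh were heterozygote replicates 5 (181) and 2 (154) and wild-type replicates 2 (101) and 3 (98.6), while the other 7 held 4.27 to 37.6. Otp was 3.10, 16.2, 6.07, 0 and 15.5 in heterozygote replicates 1 to 5 and was listed at 0 in all 6 wild-type libraries. Sim1 was 0.971, 28.9, 1.81, 0 and 2.69 in the heterozygote libraries, and 2.93 and 0.824 in wild-type replicates 1 and 3 with the other 4 at 0. Heterozygote replicate 2 thus had the most Sim1, Otp, Avp (21.2) and Oxt (6.43) of the 11 libraries. Its summed count of amygdala markers, 3393, was also the highest of the 11, and its thalamus sum was 4876, against 3892 to 6818 in all 11. Their part in the values was not tested.

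**Figure D4:**
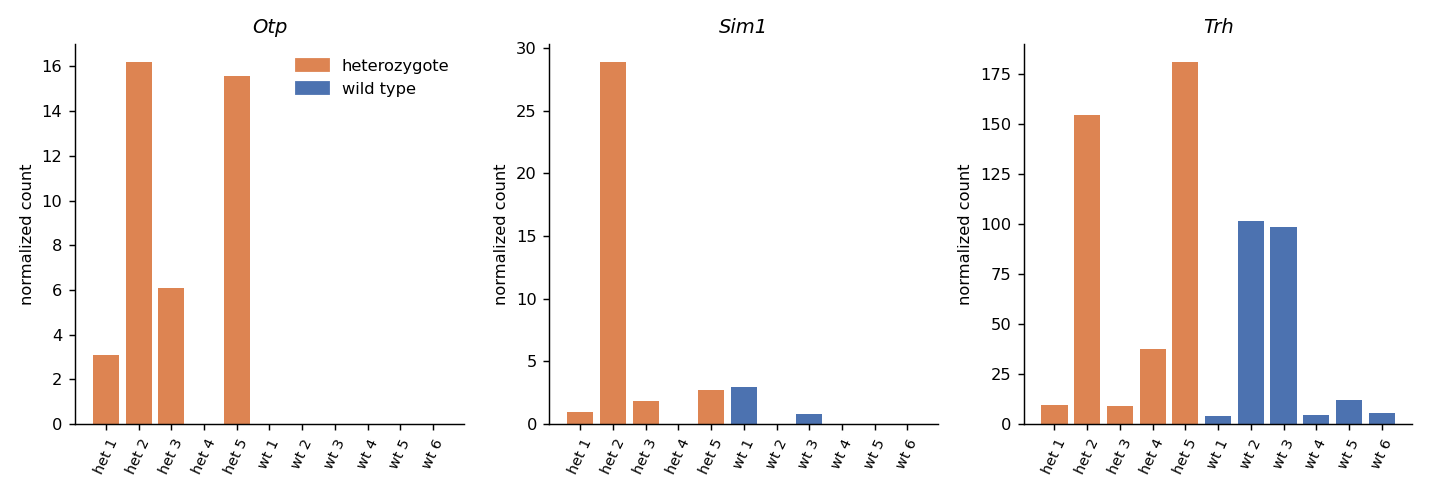
Normalized counts of Otp, Sim1 and Trh in the 11 hippocampus libraries, as bars from 0, coloured by genotype. Otp stands above 0 in 4 of 5 heterozygote libraries and in none of the 6 wild-type ones, and Trh exceeds 98 in 4 libraries of both genotypes.

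Oxtr, the oxytocin receptor, at chr6:112473683-112489943 on the minus strand, was present in all 3 regions. Its normalized count was 270.4 ± 50.5 in hippocampus, from 209 to 354, and 121 ± 24.1 in PFC, from 85.8 to 174 (SD, n = 11 each). In striatum it was 187 ± 17.0 (SD, n = 12), from 152 to 224. Hippocampus was 2.24 times PFC and the ranges did not overlap, while striatum overlapped both. The spread of Oxtr in striatum was the smallest of the 7 genes, with a coefficient of variation of 9.10%, against 46.1% for Oxt. Over all 34 libraries the genes most like Oxtr were Nos1 (r = 0.92), Lypd1, Entpd6, Adamts2 and Pcdh8 (0.91 each). All were highest on average in hippocampus.

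Avpr1a, the vasopressin 1a receptor, at chr10:122448499-122453452 on the plus strand, was a gene of the striatum libraries. It was 58.5 ± 17.2 there (SD, n = 12), from 26.9 in heterozygote replicate 1 to 88.7 in wild-type replicate 3. It was 4.49 ± 2.50 in hippocampus and 4.59 ± 1.53 in PFC (SD, n = 11 each), so striatum was 13.0 and 12.8 times these. Its highest library was that of Oxt, but over all 12 striatum libraries its rho with Oxt was 0.34. The genes most like Avpr1a over 34 libraries were Usp29, Nhs, Gpr165, Rcn1 and Gbx1 (r = 0.97 each), whose means were also highest in striatum.

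None of the 7 genes differed between heterozygote and wild-type libraries past the threshold. In striatum, where all 7 were tested, limma gave a log2 difference, heterozygote minus wild type, of -0.15 for Oxt (SE 0.52, 95% interval -1.29 to 0.99, adjusted p = 0.982) and 0.22 for Avp (SE 0.96, -1.90 to 2.34, adjusted p = 0.985). These intervals were wide for both peptides, and 3 of 6 heterozygote libraries lay above the wild-type mean for each. Otp was 0.26 (SE 0.42, adjusted p = 0.956), Sim1 -0.03 (SE 0.47, adjusted p = 0.996) and Trh 0.15 (SE 0.30, adjusted p = 0.965) by limma. These signs were not stable. Avp was -0.54 without wild-type replicate 5, -0.0084 without heterozygote replicate 4 and 0.03 without heterozygote replicate 3. Otp (-0.10) and Trh (-0.07) also changed sign without wild-type replicate 5. Oxt was 0.14 without heterozygote replicate 6 and 0.04 without wild-type replicate 3, and Sim1 changed sign when any of 6 libraries was left out. Within the 8 libraries whose code begins with 35, Avp was 1.44 (SE 1.11, adjusted p = 0.773 by limma) and Otp 0.77 (SE 0.51, adjusted p = 0.736 by limma). The receptors were tighter: Oxtr was -0.01 (SE 0.09, 95% interval -0.21 to 0.19, adjusted p = 0.993) and Avpr1a -0.19 (SE 0.25, -0.72 to 0.33, adjusted p = 0.946) by limma.

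In PFC and hippocampus only Trh and Oxtr reached the mean of 10 required for testing. By limma, Trh was 0.06 in PFC (SE 0.31, adjusted p = 0.993) and 1.25 in hippocampus (SE 1.17, 95% interval -1.37 to 3.86, adjusted p = 0.891). Oxtr was 0.10 in PFC (SE 0.16, adjusted p = 0.984) and 0.11 in hippocampus (SE 0.14, adjusted p = 0.919). Otp in hippocampus, with 4 of 5 heterozygote libraries above 0 and no wild-type library, was too low to be tested. With no filter on low values limma gave it 2.60 (SE 0.69, unadjusted p = 0.0017, adjusted p = 0.522).

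Over all genes, limma called 0 of 16667 genes in PFC, 0 of 16820 in hippocampus and 0 of 17054 in striatum (0% in each). At an unadjusted p under 0.05 it called 833 (5%), 1145 (6.81%) and 1004 (5.89%), and none of the members tested. The median log2 difference of the 7 members in striatum was -0.01, and that of all genes tested was -0.0038. Whether the genotype effect differed between regions could be tested for Oxtr and Trh. For Oxtr it was -0.12 for striatum minus PFC (SE 0.20) and 0.01 for hippocampus minus PFC (SE 0.20), and for Trh it was 1.18 for hippocampus minus PFC (SE 1.03). For each pair of regions 0 of 17051 genes passed, with 612 to 641 at an unadjusted p under 0.05. Codes recur across regions, 10 of 12 in all 3, and this model took the 34 libraries as independent. With the code as a random block, added after seeing the data (correlation within a code 0.0423), 0 genes passed for each pair, with 665 to 698 at an unadjusted p under 0.05. The Oxtr difference for striatum minus PFC was then -0.11 (SE 0.19).

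**Figure D5:**
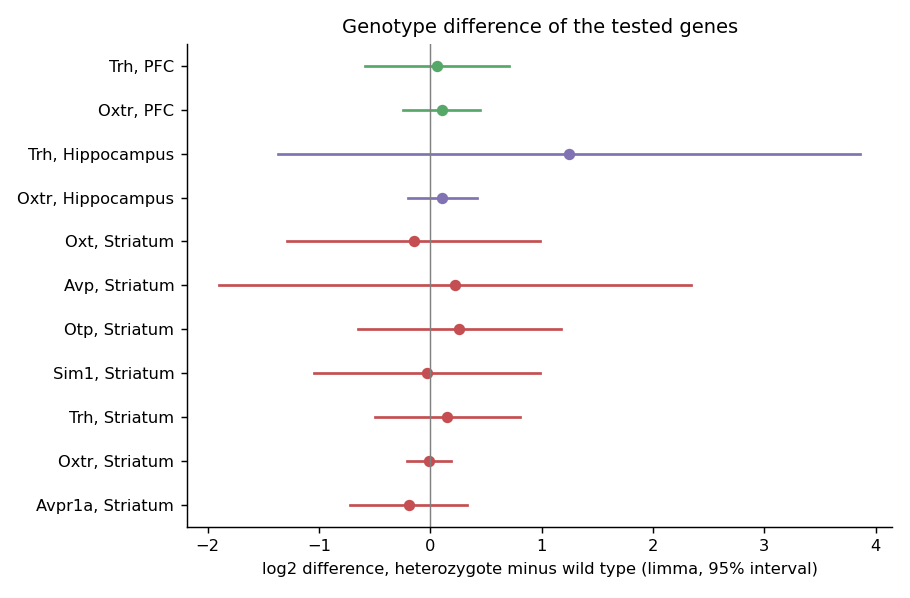
Log2 difference, heterozygote minus wild type, for each of the 11 tests of members, with its 95% interval; points right of 0 are higher in heterozygotes. Every interval covers 0, and that of Oxtr in striatum is the narrowest.

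The genes around this system were read from lists. Of the other peptides of hypothalamic neurons, 11 of 16 were in the table and 7 of these were higher in every striatum library than elsewhere, as were 5.62% of all genes. Their highest striatum means were those of Pdyn, the dynorphin precursor (2048), Nts, neurotensin (874), Cartpt (326) and Tac2 (302). In that order, r with the mean of Oxt and Avp over the striatum libraries was -0.52, -0.39, -0.25 and 0.79. For the 8 striatum markers it ran from -0.68 (Gpr6) to -0.42 (Adora2a). Whether the levels of any listed gene came from hypothalamic neurons was not tested. Tac2 was also highest in wild-type replicate 3. Hcrt, Agrp, Npvf, Kiss1 and Qrfp were not analysed here. Of the transcription factors of hypothalamic neurons, 14 of 19 were in the table and 8 were higher in every striatum library than elsewhere, against the same 5.62%. Arnt2, the partner of Sim1, was 6482 in striatum, 6929 in hippocampus and 11024 in PFC. Six3 was 1427 in striatum and 17.3 in PFC, Nkx2-1 224 and 2.28, and Pou3f2, needed for the same neurons, 701 and 1144. Six6, Lhx1 and Lhx5 were highest in wild-type replicate 3. Over the striatum libraries the summed counts, in which Pdyn and Arnt2 weigh most, had r with Oxt of -0.41 for the peptides and -0.20 for the factors, and -0.02 and 0.05 without the 2 farthest libraries. Gene by gene, 6 of 11 peptides and 10 of 14 factors had r with Oxt above 0, against 8363 of all 17053 genes with a striatum mean of at least 10. With the mean of Oxt and Avp, r ran from -0.52 (Pdyn) to 0.79 (Tac2) in the peptides. In the factors it ran from -0.46 (Arnt2) to 0.81 (Fezf1). Foxb1 was at 0.67, Pmch at 0.54, Nts at -0.39 and Pou3f2 at -0.35. Fezf1, Foxb1 and Pmch were chosen after their values were seen.

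Genes that process and release the peptides were at high levels in all regions, led in striatum by Cpe, carboxypeptidase E (47561), Scg2 (11375), Pcsk1n (7512) and Pcsk2 (6961). Scg2 was highest in wild-type replicate 3. Among the family's peptidases and receptors, Lnpep, which cleaves oxytocin, was 4445 in striatum, 4980 in hippocampus and 5065 in PFC. Trhde, which degrades thyrotropin-releasing hormone, was 520.2 in striatum and 1178 in hippocampus, and the receptors Trhr and Trhr2 were 199 and 51.0 in striatum. Avpr1b and Avpr2 were not analysed here. Of the Gq pathway genes, Camk2a led at 34152 in striatum and 117678 in PFC, followed in striatum by Itpr1 (16527), Prkcb (10864) and Rgs4 (9146). By limma, 0 genes of any of these lists passed between genotypes in any region. In striatum 7 of 12 processing genes and 2 of 11 Gq genes had a log2 difference above 0, against 8258 of all 17054 genes tested. Their medians were 0.02 and -0.05, against -0.0038 over all genes, and their smallest adjusted p by limma was 0.813 and 0.837.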

How the data were processed

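RNA sequencing libraries of PFC, hippocampus and striatum were read from the deposited table of signal values, 1 per gene and library, which the authors scaled and which are called normalized counts here. The submitters' processing notes list DESeq2 1.26.0, Salmon 1.1.0, GRCm38 and R 3.6.2. What each was used for is not given in the sources used here, nor is use of strand. Depth is unknown, so no counting interval is given. Of the identifiers, 18533 matched GENCODE M21 and 15 did not, and no gene had a highest value below 10.2.

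Within each region, genes with a mean of at least 10 were compared between genotypes with limma 3.58.1 (R 4.3.3) on log2(value + 1), with robust empirical Bayes and a trend. Tests were 2-sided, p-values were adjusted over all genes by Benjamini-Hochberg (threshold 0.05), and the differences between regions used 1 model of 34 libraries, also with the column code as a random block. A log2 difference understates change at low levels. The fit was tested on simulated data. Alternatives were a pseudocount of 10, no filter, equal library totals, 1 fit on all libraries, no robust option, a replicate block, subsets of the column codes and each library left out. Same-numbered libraries did not pair: the correlation of their deviations exceeded 0.1 in 1 of 5 pairs in PFC and in none elsewhere.

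Members and lists were chosen with earlier results of these data known. Named genes were the 7 members, the 15 genes most like Oxt and Avp, the 5 most like each receptor, and of each list the up to 4 with the highest mean, any that passed and any highest where Oxt was. Gene symbols, positions and transcript sequences are from GENCODE M21, and promoters from RefSeq GRCm38.p6. The other software was pandas 2.3.3, scipy 1.17.1, matplotlib 3.10.9 and numpy 2.4.6 under python 3.11.15.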

Additional observations from a re-analysis of the deposited data

Results flagged for a closer look

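Libraries that stood far from the others of their group were found in 6 of 40 combinations of a gene and a group of 5 or 6 libraries. The rule marks about 1 in 20 where values are normally distributed. Many values here were 0 or near it, so that rate does not apply, and 6 is not read as an excess. All lay in PFC or hippocampus. In PFC, Avp was 8.60 in wild-type replicate 1 against 0 to 1.02 in the other wild-type libraries, Otp was 4.03 in wild-type replicate 5 against 0 to 1.01, and Sim1 was 2.21 in heterozygote replicate 4 against 0. In hippocampus, heterozygote replicate 2 held 21.2 of Avp against 0 to 4.83 in the other heterozygote libraries, and 28.9 of Sim1 against 0 to 2.69. Both exceeded the lowest striatum library of the same gene, at 10.8 and 17.9. Wild-type replicate 1 of hippocampus held 2.93 of Sim1 against 0 to 0.824.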

How the results depend on the processing

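The 11 effects tested passed the threshold under none of 216 combinations of effect and alternative (smallest adjusted p by limma 0.731), and 21 of these changed sign. Of the effects too low to test, Otp in hippocampus had an adjusted p of 0.522 by limma with no filter. Within codes beginning with 35, the log2 difference was -0.011 for Oxtr in PFC, 0.40 for Trh in hippocampus (1.25 over all libraries), and 0.34 for Oxt, 0.52 for Sim1, 0.77 for Otp (0.26) and 1.44 for Avp (0.22) in striatum; without codes beginning with 31, Sim1 in striatum was 0.0904. Leaving out each library in turn gave -0.10 to 0.19 for Trh in PFC, and in striatum -0.53 to 0.14 for Oxt, -0.54 to 0.74 for Avp, -0.10 to 0.48 for Otp, -0.46 to 0.14 for Sim1, -0.0711 to 0.30 for Trh and -0.0722 to 0.0388 for Oxtr. The number of genes past the threshold, 0 in each region, became 1 in PFC, 2 in hippocampus and 2 in striatum within codes beginning with 35, 6 in hippocampus and 1 in striatum without codes beginning with 31, 1 in hippocampus with equal library totals, and 0 to 2, 0 to 4 and 0 to 1 over the libraries left out in PFC, hippocampus and striatum. The libraries concerned were heterozygote replicate 2 in PFC (2 genes), heterozygote replicate 1 (4) and wild-type replicates 2 (2), 3 (1) and 6 (1) in hippocampus, and heterozygote replicate 2 in striatum (1). With equal library totals r of Oxt with Oxtr was 0.0085, and over the libraries left out it was -0.27 to 0.22. Without the 2 libraries farthest from the Oxt median, r with Oxt was 0.62 for Avp, 0.62 for Otp, 0.82 for Sim1 and 0.46 for Avpr1a. The cause of these shifts was not tested.

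With a replicate block, 0 genes passed in any region, and the block changed no call of a member (Oxt in striatum -0.15, adjusted p = 0.983 by limma). The deviations of same-numbered libraries correlated at -0.0082 to 0.12 in PFC, where 3 of 5 pairs correlated best with their own number, at -0.03 to 0.07 in hippocampus (1 of 5) and at -0.10 to 0.07 in striatum (0 of 6).

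Depth is unknown, and levels near 0 in PFC and hippocampus left Oxt, Avp, Otp, Sim1 and Avpr1a untested there. Oxt and Avp share coding sequence, so their ratio and their agreement over libraries are uncertain.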
